A study of Mus musculus with 19 samples.

Results

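The 8 keratin genes Krt5, Krt7, Krt8, Krt14, Krt15, Krt17, Krt18 and Krt19 were followed in single cells of the mouse thymic primordium. They were taken by name from the 54179 genes of the raw count table, and each name matched a single row. The cells came from wild type C57BL/6 embryos, carried no transgene, and were sorted 1 per well as EPCAM+PLET1+ cells from microdissected thymic primordia. At E10.5 (E for embryonic day) the primordium is the third pharyngeal pouch, an endodermal pocket, and at E12.5 it is a bud that the thymus and the parathyroid gland still share. Comparisons used 4 plates of each stage, lettered a, b, c and d for the earlier stage and a, c, d and e for the later, of the 5 plates read at the later stage. Of the 733 wells on these plates, 711 passed the limits on reads, detected genes and mitochondrial share.

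At E12.5, 42 cells with Chga at 2000 CPM (counts-per-million reads) or more were called parathyroid cells, and the remaining 313 were called other cells. Chga encodes chromogranin A, a protein of secretory granules. The highest Chga value below that limit was 687 CPM and the lowest above it was 4952 CPM. Pth, the gene of parathyroid hormone, was at 11531 ± 3019 CPM in the parathyroid cells and at 11.3 ± 4.71 CPM in the other cells (SD, n = 4 plates). Foxn1, the master regulator of thymic epithelium, was at 1.37 CPM and 239 CPM in the same order. A list of 6 thymic epithelial genes summed to between 7151 and 7762 CPM in the other cells and between 78.9 and 217 CPM at E10.5, so the thymic markers were far lower at E10.5. At E10.5, 83 of 356 cells had neuronal genes summing to 2000 CPM or more and are called neural-marker cells below, and 51 cells lay within 2-fold of that limit. By plate, the neuronal list of 7 genes summed to between 1155 and 2636 CPM at E10.5. Over all E12.5 cells it summed to between 1176 and 1642 CPM, with Stmn3 at 0. The limit was applied to E10.5 cells alone, so results without neural-marker cells left out no E12.5 cell by this list. A list of 7 mesenchymal genes summed to between 132 and 211 CPM at E10.5 and between 6.97 and 39.6 CPM at E12.5, with Col3a1 at 0 at the earlier stage and Prrx1 at 0 at the later. A list of 5 thyroid or lung endoderm genes summed to between 82.0 and 157 CPM and between 0.685 and 33.9 CPM in the same order, with Tg and Sftpc at 0 at both stages. The 4 endothelial genes reached 24.98 CPM at E10.5 and 0.137 CPM at E12.5, with Cdh5 at 0 at both. Surface ectoderm genes, a list of 5 with Trp63, summed to between 63.9 and 127 CPM at E10.5 and between 44.1 and 79.3 CPM at E12.5. Trp63 itself was higher at E12.5, with means of 5.40 CPM at E10.5 and 44.1 CPM at E12.5. The part of these lists in the keratin results was not tested. Haemoglobin and T cell genes were at or near 0, although the blood list reached 305 CPM on 1 plate in the parathyroid cells. In that class the only members of the list with reads were Ptprc and Tyrobp.

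Keratins form the intermediate filaments of epithelial cells. A filament is built from pairs of a type I and a type II keratin, so a cell needs at least 1 of each type. Of the 8 genes, Krt5, Krt7 and Krt8 encode type II keratins and Krt14, Krt15, Krt17, Krt18 and Krt19 encode type I keratins. Krt8 with Krt18 is the pair of simple, single-layered epithelia. Krt5 with Krt14 is the pair of basal cells in stratified epithelia, where Krt15 and Krt17 are also found. In the mature thymus Krt8 is used to mark cortical epithelium, and Krt5 and Krt14 are used to mark medullary epithelium.

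The members lie in the 2 keratin gene clusters of the genome (GRCm38, GENCODE vM21). Krt15 (chr11:100131758-100135928), Krt19 (chr11:100140810-100148665), Krt14 (chr11:100203162-100207548) and Krt17 (chr11:100256217-100261029) lie on the minus strand of chromosome 11. Krt7 (chr15:101411043-101430313, plus strand), Krt5 (chr15:101707070-101712898, minus strand), Krt8 (chr15:101996698-102004482, minus strand) and Krt18 (chr15:102028180-102032027, plus strand) lie on chromosome 15. Krt18 is the only type I gene of the 8 that sits among the type II genes. It is separated from Krt8 by 23697 bases, and the genes point away from each other.

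The sequences just before Krt5, Krt8 and Krt18 are shown. These 3 genes gave the largest molecule counts of the 8 in the E12.5 other cells, and they are also the only members for which a window could be placed, so the choice was not made among all 8. Each runs 5′ to 3′ on the strand of its gene, holds the 100 bases before the start of transcription that lies farther upstream in RefSeq or GENCODE, and is taken from RefSeq promoters (GRCm38.p6). The coordinates are chr15:101712906-101713005 for Krt5, chr15:102004483-102004582 for Krt8 and chr15:102028080-102028179 for Krt18.
Krt5: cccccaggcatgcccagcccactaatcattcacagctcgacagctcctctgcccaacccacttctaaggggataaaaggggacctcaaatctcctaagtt
Krt8: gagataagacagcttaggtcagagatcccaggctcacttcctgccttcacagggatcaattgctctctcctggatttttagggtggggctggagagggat
Krt18: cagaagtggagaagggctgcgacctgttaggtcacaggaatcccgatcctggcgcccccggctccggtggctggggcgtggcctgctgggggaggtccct
The windows of Krt5 and Krt8 held 54% and 52% G and C bases, and the window of Krt18 held 69%. No letters are in capitals because none of the 3 motifs searched was present. TATAAA on the coding strand stands in 4.09% of 16216 windows of the same length, CCAAT on either strand in 22.1%, and GGGCGG on either strand in 31.2%.

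Depth differed between plates. Plates held between 14981265 and 20106286 reads on all genes. The median number of molecules per cell, counted after the correction of molecular barcodes in the first sequencing run, was 1305 on plate a at E10.5 and between 4150.5 and 5175 on plates b, c and d of that stage. At E12.5 it lay between 1813 and 5169. Each plate held a single stage, so plate handling and stage cannot be told apart. The labels do not say that plates came from separate litters, and p-values measure the spread between plates. Levels are given as CPM, the reads of a gene summed over the cells of a plate and scaled to the protein-coding reads of those cells, and in such sums fewer cells with a transcript and less transcript per cell cannot be told apart.

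Between E10.5 and E12.5, Krt5, Krt8, Krt17 and Krt18 rose in every setting tried. Krt8 and Krt18, already present at E10.5, rose 6.22-fold and 9.11-fold in mean CPM, while Krt5 and Krt17 went from a few CPM to means of 519 and 121 CPM. Krt7 fell, and Krt19 was not called in either direction. In edgeR's quasi-likelihood test across 11499 genes, 5 of the 7 keratins tested were higher at E12.5 and 1 was lower at a Benjamini-Hochberg adjusted p under 0.05, where 3.80% of all genes tested were called higher, 2.44% lower and 6.24% in either direction. The 5 include Krt14 and the 1 is Krt7, whose calls were lost when some of the plates were left out. Krt15 did not pass the filter on low counts and was not tested.

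**Figure D1:**
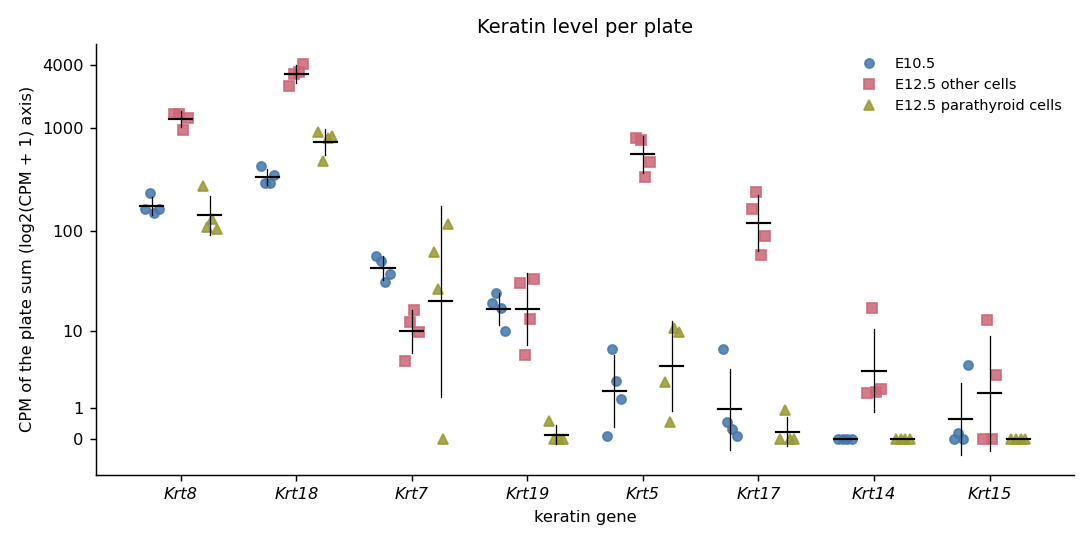
Level of each keratin as CPM of the cells of a plate on a log2(CPM + 1) axis, for E10.5 (circles), E12.5 other cells (squares) and E12.5 parathyroid cells (triangles). Points are plates, black bars the mean and thin lines the SD of log2(CPM + 1) over 4 plates. For Krt8 and Krt18 the squares lie above 900 CPM and the circles below 450 CPM.

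Krt8, the type II keratin of simple epithelia, stood at 164, 234, 148 and 163 CPM on the E10.5 plates in order of their letters, and at 1216, 1168, 865 and 1162 CPM on those of E12.5. Its partner Krt18 stood at 421, 290, 294 and 347 CPM at E10.5, and at 2326, 2881, 3187 and 3918 CPM at E12.5. For both genes every E12.5 plate was above every E10.5 plate. The log2 change was 2.56 (SE 0.25, edgeR adjusted p = 9.68e-05) for Krt8 and 3.15 (SE 0.28, edgeR adjusted p = 5.31e-05) for Krt18. The median log2 change of all genes tested was 0.001. A near-copy of Krt8 annotated as Krt8-ps held 25 reads at E10.5 and 98 at E12.5, against 9237 and 70189 reads of Krt8.

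Krt5, the type II keratin of basal cells, stood at 0.0795, 6.41, 2.66 and 1.46 CPM at E10.5, and at 693, 639, 302 and 440 CPM at E12.5. This was a 196-fold difference of the mean CPM (2.65 ± 2.72 and 519 ± 181, SD, n = 4) and a log2 change of 7.47 (SE 0.86, edgeR adjusted p = 3.57e-04). Krt17, a type I keratin of basal and stressed epithelia, stood at 6.36, 0.453, 0.257 and 0.0696 CPM at E10.5. It reached 145, 202, 53.2 and 82.8 CPM at E12.5. Plate a, the shallowest of the E10.5 plates, held most of the early Krt17 reads, and still lay below every E12.5 plate. The log2 change of Krt17 was 6.14 (SE 1.07, edgeR adjusted p = 0.00558), with 8.66 when plate a of E10.5 was left out and 4.77 on molecules. That of Krt5 was 8.39 without plate b of E10.5. For these 4 genes the direction and the call were the same in all 20 alternative settings tried.

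Krt14, the usual type I partner of Krt5, had no read on any E10.5 plate and was at 1.58, 14.6, 1.65 and 1.94 CPM at E12.5. The mean at E12.5 was 21.2-fold above the level of 3 reads per plate at E10.5, and 7.41-fold without plate c, which held most of the reads. The 298 reads at E12.5 came from few molecules, so these folds set no lower limit on the change. The edgeR adjusted p of 0.0308 did not hold: it was between 0.0505 and 0.0790 when any plate other than plate a of E10.5 was left out. Behind the E12.5 value stood 6 molecules in 6 cells. Krt15 was read on 2 plates at each stage, at 0.151 and 4.18 CPM at E10.5 and at 11.2 and 2.90 CPM at E12.5.

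Krt7 and Krt19 accompany Krt8 and Krt18 in ductal and other simple epithelia. Krt7, of type II, stood at 57.0, 50.8, 31.6 and 38.2 CPM at E10.5 and at 11.6, 14.5, 15.05 and 16.7 CPM at E12.5. All E12.5 plates were below all E10.5 plates, with a mean 3.07-fold higher at E10.5. The log2 change was -1.65 (SE 0.38, edgeR adjusted p = 0.0228), and -2.37 without parathyroid and neural-marker cells. The call was lost without plate b or d of E10.5 and without plate a, c or d of E12.5, where the adjusted p lay between 0.0512 and 0.0742. Krt19, of type I, stood at 19.6, 24.6, 17.2 and 9.96 CPM at E10.5 and at 27.5, 4.59, 12.1 and 31.3 CPM at E12.5, and the plates of the stages overlapped. Its log2 change was 0.07 (SE 0.62, edgeR adjusted p = 0.975), and the sign turned in 8 alternatives.

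The neural-marker cells held less Krt18 and Krt7 than the remaining E10.5 cells, and on some plates a like level of Krt8. Their Krt18 stood at 144, 81.9, 54.3 and 105 CPM on the 4 plates, against 506, 348, 364 and 406 CPM in the remaining cells. Their Krt8 stood at 47.7, 209, 121 and 165 CPM against 200.2, 241, 156 and 163 CPM. Krt7 was below 1 CPM on each plate. No molecule of Krt7 was found in the 83 neural-marker cells, which allows a share of cells with a captured molecule of up to 3.61% and sets no limit on cells that express the gene, since 6 reads of Krt7 were present there, while 60 of the 273 remaining E10.5 cells held one. Without the neural-marker cells the E10.5 means were 190 CPM for Krt8, 406 CPM for Krt18 and 56.8 CPM for Krt7.

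The share of cells with a keratin followed the same order as the levels for most members. A cell was counted when the first sequencing run held at least 1 molecule of the gene, and shares were compared over plates with an exact two-sided permutation test. With 4 plates against 4 that test cannot give a p below 0.029. The plates of the stages did not overlap for 4 of the 8 keratins, all higher at E12.5, against 4.53% of the 15379 genes with a molecule.

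**Figure D2:**
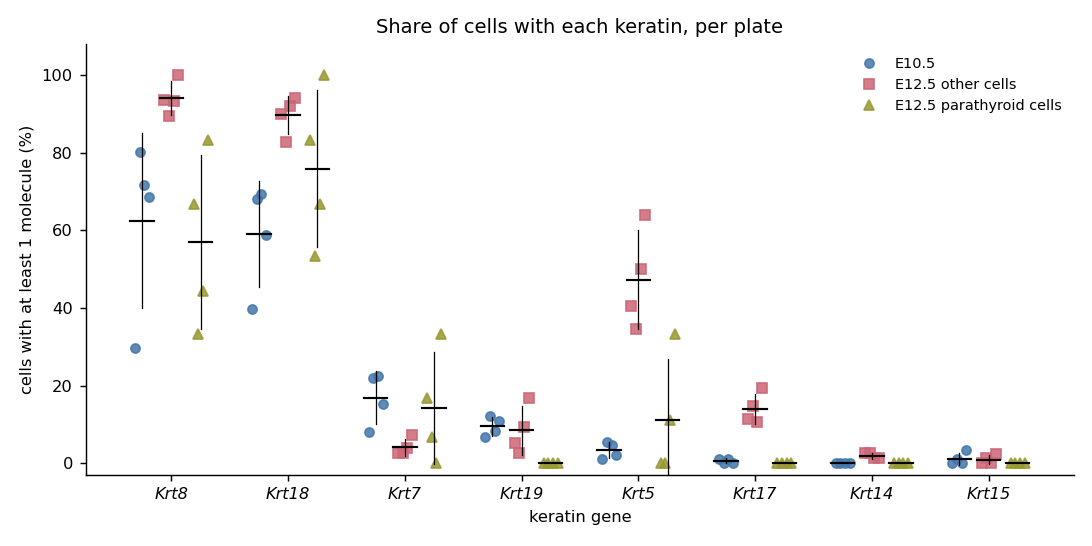
Percent of cells with at least 1 molecule of each keratin per plate, for E10.5 (circles), E12.5 other cells (squares) and E12.5 parathyroid cells (triangles). Bars and lines are the mean and SD over 4 plates. Krt8 and Krt18 are found in most cells, Krt5 in 34.7% to 63.9% of E12.5 other cells, and Krt14 and Krt15 in almost none.

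Krt5 was found in 1 of 88, 5 of 91, 4 of 85 and 2 of 92 cells on the E10.5 plates. Among the E12.5 other cells it was found in 32 of 79, 26 of 75, 38 of 76 and 53 of 83. Over all E12.5 cells the share was 42.9% ± 14.4, against 3.38% ± 2.06 at E10.5 (SD, n = 4 plates, exact permutation p = 0.029). Krt17 was found in 12.4% ± 3.93 of E12.5 cells and in 2 of 356 E10.5 cells (exact permutation p = 0.029). When every cell was thinned to 1000 molecules, which left out 25 E10.5 cells and 5 E12.5 cells, the Krt5 shares were 27.7% and 0.882% (exact permutation p = 0.029). The Krt17 shares were then 5.11% and 0.397%, and their plates overlapped (exact permutation p = 0.057).

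Krt18 was found in 87.6% ± 7.02 of E12.5 cells and 59.0% ± 13.7 of E10.5 cells (exact permutation p = 0.029). Krt8 was found in 89.3% ± 7.75 and 62.5% ± 22.5, and its plates overlapped (exact permutation p = 0.057). The low Krt8 plate was plate a of E10.5, the shallowest, with 26 of 88 cells. Thinned to 1000 molecules, the Krt8 shares were 76.2% and 25.5% and no longer overlapped (exact permutation p = 0.029). Krt7 was found in 16.9% ± 6.79 of cells at E10.5 and 5.06% ± 2.66 at E12.5, with overlap (exact permutation p = 0.057). For Krt19 the shares were 9.50% ± 2.41 and 7.65% ± 5.94 in the same order (exact permutation p = 0.629).

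Krt14 was found in 6 of 313 E12.5 other cells, or 1.92% (95% exact interval 0.707% to 4.13%). In 356 E10.5 cells the count was 0, which allows a share of up to 0.843%. Its share over plates differed (exact permutation p = 0.029), but not after thinning (exact permutation p = 0.429). As a measure of stray RNA, Pth molecules were found in 5 of 313 other cells, or 1.60% (0.521% to 3.69%), at median depths of 3184 molecules per cell in the other cells and 2102.5 in the parathyroid cells. The Krt14 interval spans that value, and Krt15, in 3 of 313 cells, lay below it. Pth stood at 11531 CPM in the parathyroid cells, and neither Krt14 nor Krt15 had a group near such a level. The Pth share therefore cannot show whether Krt14 or Krt15 molecules were stray. Intervals cover counting error only.

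Among cells, the levels were spread very unevenly for the basal keratins and much more evenly for the simple pair. In the other cells the median cell held 949 CPM of Krt8 and 2326 CPM of Krt18. The median for Krt5 was 10.9 CPM, the highest cell reached 13655 CPM, and 12 of 313 cells held 50% of the summed CPM. For Krt17, 5 cells did so. For Krt8 it took 68 cells and for Krt18 it took 57. At 1000 CPM or more, Krt5 was found in 39 of 313 other cells and in 0 of 356 E10.5 cells.

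Counted as molecules, each transcript once whatever its length, the 8 keratins together made up 0.0800% of all molecules at E10.5 and 0.769% in the E12.5 other cells. At E10.5 the order was Krt18 (372 ± 20.2, as CPM of molecules in place of reads), Krt8 (320 ± 47.6), Krt7 (57.7 ± 13.2), Krt19 (35.5 ± 12.9) and Krt5 (9.93 ± 3.07), with Krt17, Krt15 and Krt14 below. The plates of Krt18 and Krt8 overlapped, as did those of Krt7 and Krt19, while every plate had more Krt8 than any plate had Krt7 and more Krt19 than any plate had Krt5. In the E12.5 other cells Krt18 (3262 ± 516), Krt8 (2343 ± 337) and Krt5 (1878 ± 583) led, each overlapping its neighbour, and Krt17 followed at 139 ± 69.9. Krt5 thus moved from the fifth place to the third. By reads the plates of Krt5 in these cells, at 331 to 789 CPM, all lay below those of Krt8, at 938 to 1357 CPM.

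The make-up of the keratin molecules changed with the order. Krt8 and Krt18 together gave 86.5% ± 2.14 of keratin molecules at E10.5 and 73.6% ± 4.85 at E12.5. Krt7 and Krt19 together gave 11.6% ± 2.01 and 0.824% ± 0.294. Krt5 and Krt17 together gave 1.58% ± 0.520 and 25.5% ± 4.69, and for all 3 pairs the plates of the stages did not overlap on this scale. By reads in place of molecules (shares of the summed CPM), Krt8 and Krt18 gave 88.5% ± 1.84 and 85.8% ± 5.58, with overlapping plates. Krt5 and Krt17 then gave 0.740% ± 0.386 and 13.3% ± 5.50 and Krt7 and Krt19 gave 10.6% ± 1.73 and 0.683% ± 0.231, both without overlap. The ratio of type I to type II was 1.08 ± 0.175 at E10.5 and 0.843 ± 0.133 at E12.5 on molecules. On reads it was 1.65 ± 0.399 and 2.06 ± 0.675, so its direction between the stages depended on the scale. These shares and ratios cover only the keratin genes followed here. Krt10, a further keratin gene, was left out of them. Its means of 132 CPM at E10.5 and 124 CPM at E12.5 were above those of Krt7 and Krt19 at both stages. Shares and ratios with Krt10 counted in were not computed, and their directions could differ. With Krt14 almost unread, the type II molecules of Krt5 at E12.5 were set against type I molecules that were mainly Krt18.

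In the parathyroid cells the simple pair was lower than in the other cells of the same plates, and the basal keratins were close to absent. The surface ectoderm list of 5 genes summed to between 0 and 0.629 CPM in the parathyroid cells, with Tfap2a and Dlx3 at 0. In the other cells it summed to between 47.2 and 87.1 CPM. Its member Trp63, which is also among the epithelial regulators below, had means of 0.157 CPM in the parathyroid cells and 49.4 CPM in the other cells. The neuronal list of 7 genes summed to between 5.89 and 57.3 CPM, with Elavl4 and Stmn3 at 0, and to between 1337 and 1800.1 CPM, in the same order. The mesenchymal list went the other way, at 32.5 to 105 CPM in the parathyroid cells, with Prrx1 and Col3a1 at 0, and at 5.18 to 30.6 CPM in the other cells. The part of these lists in the difference was not tested. In edgeR's quasi-likelihood test across 9839 genes, 5 of the 7 keratins tested were lower in the parathyroid cells and none was higher, where 6.47% of all genes tested were called lower, 1.81% higher and 8.28% in either direction. Both classes of a plate come from the same library, so plates pair the classes. With the plate as a block 4 of the 7 were lower, where 1.74% of genes were called lower, 1.15% higher and 2.89% in either direction. The median log2 change of all genes was -0.18, and 0.02 with size factors in place of TMM scaling, so that the changes below are large beside either. With the block it was -1.06.

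Krt8 stood at 271, 110, 130 and 105 CPM in the parathyroid cells of plates a, c, d and e, and at 1346, 1357, 938 and 1236 CPM in the other cells. The log2 change was -3.15 (SE 0.35, edgeR adjusted p = 8.64e-04), and -2.55 with Pth or Gcm2 in place of Chga as the marker of the class. Krt18 stood at 897, 471, 799 and 829 CPM against 2523, 3310, 3425 and 4135 CPM, a log2 change of -2.33 (SE 0.31, edgeR adjusted p = 0.00271). Neither gene overlapped between the classes. Beside the E10.5 plates, the parathyroid mean of Krt8 was 0.868 times as high and that of Krt18 was 2.22 times as high, which was not tested. Per molecule of Krt18 the parathyroid cells held 0.446 ± 0.0407 molecules of Krt8 and the other cells 0.722 ± 0.0758, with no overlap between plates. The parathyroid ratios rest on few molecules, 14, 5, 8 and 9 of Krt8 and 28, 11, 19 and 22 of Krt18 by plate. Their counting error is therefore large. By reads the parathyroid ratio was 0.206 ± 0.0774 and that of the other cells 0.379 ± 0.119, and the plates overlapped. Within each plate the parathyroid ratio was the lower, at 0.302, 0.233, 0.162 and 0.127 against 0.533, 0.410, 0.274 and 0.299.

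Krt5 stood at 2.51, 0.453, 10.7 and 9.86 CPM in the parathyroid cells and at 789, 753, 331 and 470 CPM in the other cells, a 99.6-fold difference of the means. The log2 change was -6.76 (SE 0.88, edgeR adjusted p = 0.00238), with -7.51 without plate d and -5.50 on molecules. As CPM of molecules Krt5 stood at 59.8 ± 96.3 in the parathyroid cells, with 202 on plate e, and at 1878 ± 583 in the other cells, a 31.4-fold difference of the means. Krt17 had 2 reads in all parathyroid cells and Krt19 had 1. From the pooled reads, Krt17 was 448-fold higher in the other cells (95% counting interval 124 to 3699) and Krt19 was 144-fold higher (25.8 to 5702). These intervals take reads as independent counts and are therefore too narrow. In the first run the other cells held 134 molecules of Krt17 and 57 of Krt19, and the parathyroid cells held 0 of each. The fitted log2 change of Krt17, which with 2 reads depends on the prior count, ranged from -12.73 without plate c to -8.40 on molecules. The edgeR adjusted p was 0.00306 for Krt17 and 0.0326 for Krt19. The Krt19 call was lost with the plate as a block (edgeR adjusted p = 0.107), with Pth or Gcm2 in place of Chga, without the count filter, and whenever a plate was left out. On plate b of E12.5, which was read in a single run and is in none of these comparisons, Krt19 stood at 106 CPM in the parathyroid cells (79 reads, with molecules in 1 of 13 cells) and at 5.54 CPM in the other cells. Krt14 had no read in the parathyroid cells and was not called (edgeR adjusted p = 0.0614), and Krt15 also had none.

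Krt7 was the exception in direction. It stood at 61.9, 26.7, 0 and 116 CPM in the parathyroid cells and at 4.71, 12.3, 16.5 and 9.74 CPM in the other cells. On plates a, c and e the parathyroid cells had more, and on plate d, with 9 parathyroid cells, they had none. The log2 difference of 2.11 (SE 1.38) was not called (edgeR adjusted p = 0.570). Molecules of Krt7 were found in 5 of 42 parathyroid cells and 13 of 313 other cells, and the plate shares overlapped (exact permutation p = 0.257).

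The share tests of the classes took the plates as unpaired. A test paired by plate cannot give a p below 0.125 with 4 plates, and it gave 0.125 for Krt5, Krt8, Krt14, Krt17 and Krt19, each lower in the parathyroid cells on 4 of 4 plates (exact sign-flip permutation, added after the data were seen). By shares of cells, Krt8 was found in 56.9% ± 22.4 of parathyroid cells and 94.1% ± 4.40 of other cells (exact permutation p = 0.029). Krt5 was found in 3 of 42 parathyroid cells, on plates d and e, and Krt17 and Krt19 in none, which allows a share of up to 7.14%. The plates of the classes did not overlap for 5 of the 8 keratins, Krt5, Krt8, Krt14, Krt17 and Krt19, all lower in the parathyroid cells, against 10.9% of 14147 genes, of which 2.46% had plates without overlap that were higher in the parathyroid cells. With 0 of 42 parathyroid cells and 6 of 313 other cells, Krt14 could readily be lower on 4 of 4 plates at an equal share. For Krt14 and Krt19 the plates overlapped after thinning to 1000 molecules. Krt18 was found in 75.8% ± 20.3 and 89.7% ± 4.95 (exact permutation p = 0.286), and after thinning in 39.1% ± 9.86 and 78.3% ± 1.97 (exact permutation p = 0.029).

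Within single cells, the correlation of Krt8 with Krt18 was high in the E12.5 other cells and low at E10.5 and in the parathyroid cells. The Spearman correlation of reads thinned to 40000 per cell was 0.73, 0.77, 0.78 and 0.72 on the 4 plates of other cells. At E10.5 it was 0.22, 0.12, 0.20 and 0.29, and over the 42 parathyroid cells it was 0.15. Without the neural-marker cells the E10.5 median was 0.16. Cells of a plate share a library, so these values are descriptions and carry no p. The first run held 2608 Krt8 and 3634 Krt18 molecules in the 313 other cells. It held 474 and 533 in the 356 E10.5 cells, and 36 and 80 in the 42 parathyroid cells. Few molecules per cell can lower a correlation, and the part of this in the difference was not tested. In the other cells the correlation with the number of molecules in a cell had a median of 0.12 for Krt8 (0.028 to 0.19 over plates). For Krt18 it was 0.043 (-0.086 to 0.35). At E10.5 the medians were 0.065 for Krt8 (-0.13 to 0.25) and 0.15 for Krt18 (-0.086 to 0.26). Molecules of both genes were found in 275 of 313 other cells, 155 of 356 E10.5 cells and 18 of 42 parathyroid cells.

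**Figure D3:**
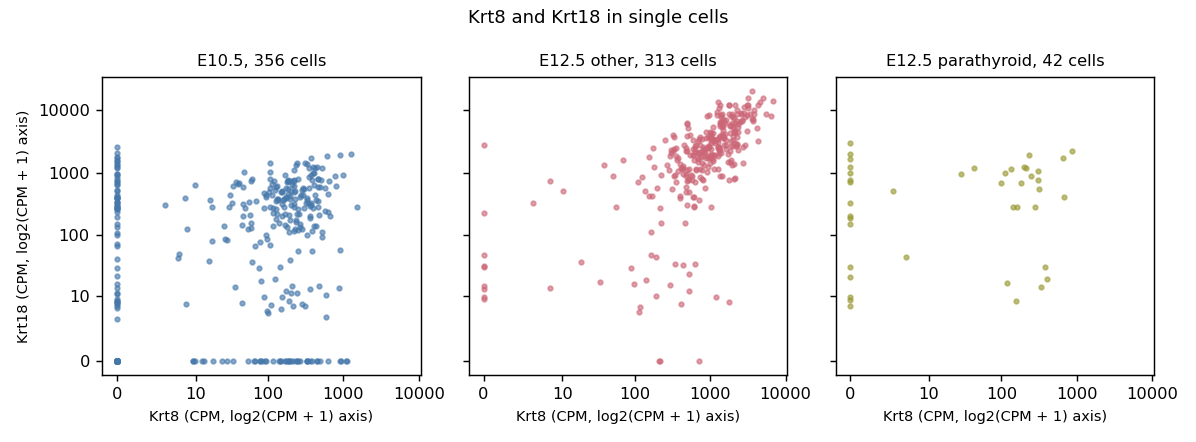
Krt18 against Krt8 in each cell, as CPM on log2(CPM + 1) axes, in 356 E10.5 cells, 313 E12.5 other cells and 42 E12.5 parathyroid cells. Points are cells. The E12.5 other cells form a rising cloud, with a median Spearman correlation of 0.75 over plates, and many E10.5 cells lie on an axis with reads of 1 gene only.

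In the E12.5 other cells the basal keratins were found in cells that also held Krt8 or Krt18. Krt8 was itself found in 295 and Krt18 in 281 of the 313 other cells. Nearly every cell with a basal keratin would thus hold one of them whatever the relation of the genes. Of the 313 other cells, 161 held a molecule of Krt5, Krt14, Krt15 or Krt17, and all 161 also held Krt8 or Krt18, so the count without either was 0, which allows a share of up to 0.958%. A further 140 cells held Krt8 or Krt18 with none of the basal genes, and 12 held none of the 8 keratins. At E10.5 the counts were 14 cells with both, 264 with the simple pair alone, 2 with a basal gene alone and 67 with none of the 8. Of those 67 cells, 38 were neural-marker cells and 36 came from plate a. Krt5, Krt8 and Krt18 were found together in 145 other cells, 10 E10.5 cells and 2 parathyroid cells.

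In the other cells Krt5 and Krt17 were found together more often than the product of their single shares. In these cells the correlation with the number of molecules in a cell had a median of 0.20 for Krt5 (0.12 to 0.32 over plates), 0.16 for Krt17 (-0.14 to 0.48) and 0.17 for Krt19 (0.065 to 0.18), and the part of depth in the joint counts was not tested. Of 44 other cells with Krt17, 36 also had Krt5 (81.8%), and of 149 cells with Krt5, 24.2% had Krt17. By plate, both were found in 10.1%, 9.33%, 7.89% and 18.1% of other cells, where the products of the single shares were 4.61%, 5.08%, 5.26% and 12.3%. The correlation was 0.48, 0.28, 0.27 and 0.51 on the same plates. At E10.5, Krt17 was found in 2 cells, neither of which had Krt5.

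Krt19 was not called between the stages, and its companions were compared at each. At E10.5, 29 of the 34 cells with Krt19 had Krt18, or 8.15% of cells where the product of the single shares was 5.76%, and 22 had Krt8. Without the neural-marker cells, 10.3% of E10.5 cells had Krt18 and Krt19, and the product was 8.67%. Among the other cells at E12.5 all 27 cells with Krt19 had Krt18 and Krt8. However, 281 of the 313 cells had Krt18, and the 8.63% of cells with Krt18 and Krt19 lay near the product of 7.77%. At E10.5 none of the 34 had Krt5, which was itself found in only 12 cells, so the product of the single shares was 0.341% of cells. Among the other cells at E12.5, 23 of the 27 also had Krt5 (85.2%), or 7.35% of cells where the product of the single shares was 4.59%, and 10 had Krt17. The correlation of Krt19 with Krt5 could be taken on 3 plates and had a median of 0.32 (0.20 to 0.44). Of 13 other cells with Krt7, 0 had Krt17 or Krt19, where the products of the single shares were 0.622% and 0.446% of cells, while 7 had Krt5 and 12 had Krt18. At E10.5, 4 cells had both Krt7 and Krt19, of 60 and 34 cells with each, and the median correlation was -0.09 (-0.18 to 0.27 over plates). These counts of rare genes are small.

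**Figure D4:**
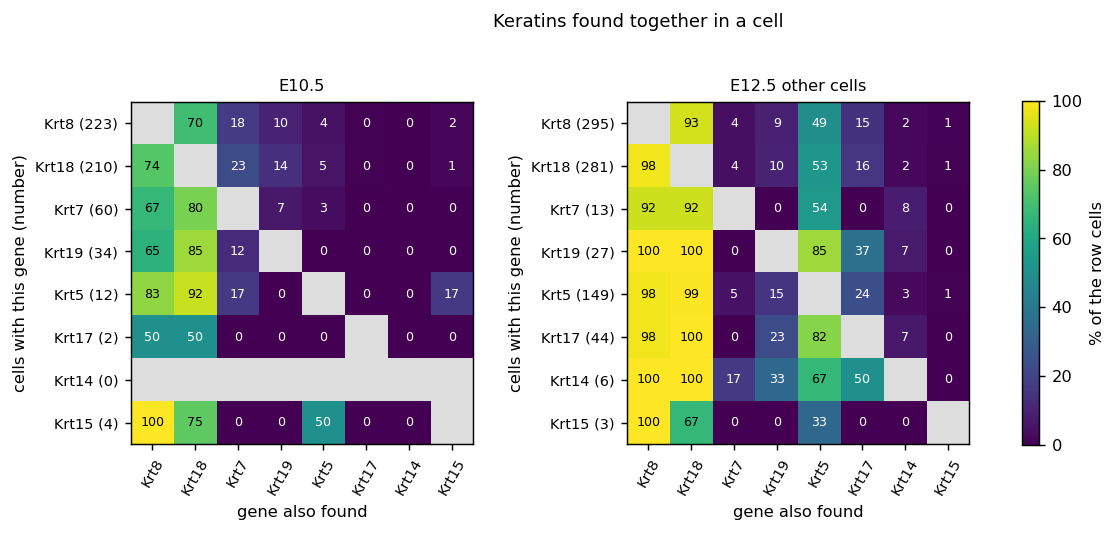
Percent of cells with the keratin of a row that also held the keratin of a column (at least 1 molecule each), at E10.5 and in E12.5 other cells, with the number of cells of each row in brackets. Grey marks the diagonal and rows with no cell. At E12.5 the Krt17 and Krt19 rows hold Krt5 in 82% and 85% of cells, and at E10.5 both stand at 0.

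The other cells were then set out by their Krt5. In 164 cells no Krt5 molecule was found, in 110 cells Krt5 was found at under 1000 CPM, and in 39 cells it reached 1000 CPM, with 44 cells within 2-fold of that limit. The median cell of these groups held 2560, 3830 and 3774 molecules, so the group without Krt5 was the shallowest, and the part of depth in the differences was not tested. In the same order Krt18 stood at 2126 ± 652, 4260 ± 641 and 5530 ± 1151 CPM (SD over 4 plates), and Krt8 at 927 ± 221, 1415 ± 272 and 1902 ± 489 CPM. Krt17 stood at 26.8 ± 22.1, 106 ± 94.7 and 646 ± 383 CPM, and was found in 8, 14 and 22 cells. For all 3 genes the mean was higher in each next group.

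Most Krt19 lay in the highest Krt5 group. It was at 2.95 CPM and 6.29 CPM in the first groups and at 126 ± 103 CPM in the 39 cells with the most Krt5, of which 14 held a molecule. Krt7 stood at 11.6, 8.13 and 10.1 CPM, and in the last group it was read on plate c alone. Foxn1, the thymic regulator, stood at 234, 263 and 216 CPM. Psmb11, a proteasome subunit gene of cortical epithelium, stood at 788 ± 112, 1255 ± 578 and 947 ± 532 CPM. Cldn4, a tight junction gene used to mark early medullary cells, stood at 20.8 ± 14.7, 41.6 ± 32.8 and 269 ± 279 CPM, with a wide spread between plates. Plet1, the gene of a sorting marker, stood at 38.2, 64.1 and 141 CPM. The groups were defined from the measured Krt5, and no test was made between them.

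**Figure D5:**
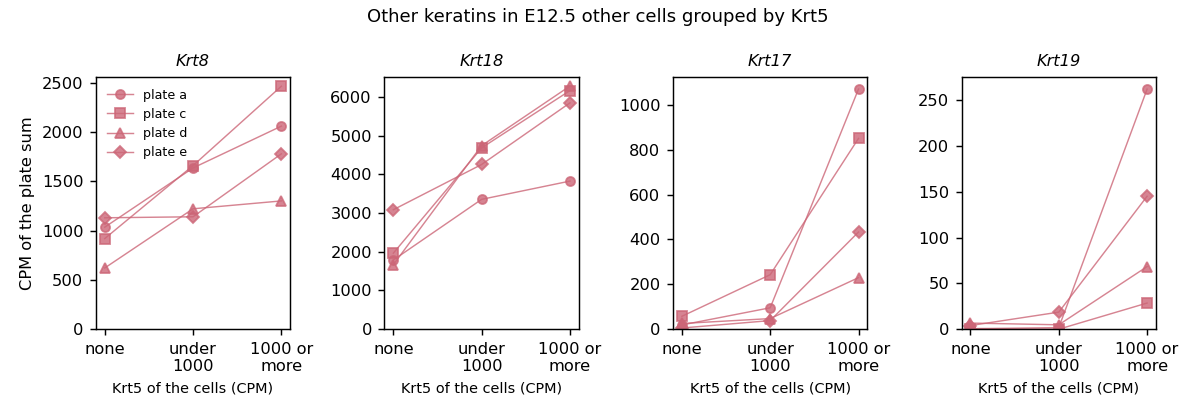
Krt8, Krt18, Krt17 and Krt19 as CPM of the plate sum in E12.5 other cells grouped by Krt5 (no molecule, under 1000 CPM, 1000 CPM or more). Points joined by a line are 1 plate. All 4 genes are highest in the last group on every plate, and Krt17 and Krt19 differ mostly between the second and the last.

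Among 4063 genes read in at least 10% of other cells on every plate, the genes most alike Krt18 over cells were Krt8 (median correlation 0.75), Ccl25 (0.65) and Psmb11 (0.55). For Krt8 they were Krt18, Ccl25 (0.49) and Psmb11 (0.47). Ccl25 encodes a chemokine that draws thymocyte precursors and Psmb11 encodes a proteasome subunit of cortical epithelium. For Krt5 they were Hspb1 (0.46), a small heat shock protein, Clu (0.43), a secreted chaperone, and Heyl (0.39), a Notch target. On their lowest plates these stood at 0.20, 0.30 and 0.21. For Krt17 they were Krt5 (0.38), Parm1 (0.36) and Dsp (0.33), a desmosomal plaque protein, with lowest plates of 0.27, -0.01 and 0.058. Krt7, Krt14, Krt15 and Krt19 were read in too few cells to be ranked.

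Desmosomes are the junctions to which keratin filaments are anchored. Of 18 desmosome and linker genes 15 could be tested between the stages, and 6 were higher at E12.5 and 0 lower, where 3.80% and 2.44% of all genes were, with a median log2 change of 1.17 against 0.001 for all genes. Pkp1, a plakophilin, went from 0.0377 to 65.1 CPM (log2 change 10.44, SE 1.10, edgeR adjusted p = 1.91e-04). Dsp, which binds the filaments, went from 29.6 to 267 CPM (log2 change 3.10, SE 0.29, edgeR adjusted p = 6.93e-05). Perp and the desmosomal cadherin Dsc2 rose by 3.16 and 4.19 on the log2 scale. In the parathyroid cells 3 of the 15 were lower than in the other cells and 0 higher, where 6.47% and 1.81% of all genes were, with a median log2 change of -0.76 against -0.18 for all genes. Pkp1 stood at 0.360 CPM there against 72.3 CPM, and Dsp at 72.3 CPM against 291 CPM. The third, Itgb4, an integrin of hemidesmosomes, had no read there, and its call was lost with the plate as a block (edgeR adjusted p = 0.151).

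Of 16 regulators of epithelial genes 13 were tested between the stages, and 3 were higher at E12.5 and 0 lower, where 3.80% and 2.44% of all genes were, with a median log2 change of 1.91 against 0.001 for all genes. Trp63, the p63 gene that drives basal keratins in stratified epithelia, went from 5.40 to 44.1 CPM (log2 change 2.92, SE 0.46, edgeR adjusted p = 0.00304). Klf5, a regulator of epithelial growth, rose by 1.99 on the log2 scale. Between the classes 11 were tested, and 3 were lower in the parathyroid cells, where 6.47% of all genes were, Trp63 (0.157 against 49.4 CPM), Ovol1 and Cebpa. With the plate as a block Trp63 stayed called (edgeR adjusted p = 0.0431), and Ovol1 (0.0922) and Cebpa (0.183) did not.

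Most of the rest of the intermediate filament genes were not called. Of 13 non-keratin genes 10 were tested between the stages, and 0 were higher (3.80% of all genes), 2 were lower at E12.5 (2.44%) and 8 were not called, with a median log2 change of -0.75. Nefl and Nefm, neurofilament genes, fell by 6.32 and 1.17 on the log2 scale, and both belong to the list by which the E10.5 neural-marker cells were chosen. Nefm was still at 665 CPM in the E12.5 other cells and was at 3.84 CPM in the parathyroid cells. Between the classes 7 were tested, and 2, Nefm and Nes, the nestin gene of neural progenitors (0.630 against 77.6 CPM), were lower in the parathyroid cells, where 6.47% of all genes were, and 0 were higher. Of 46 keratin genes outside the 8, 4 passed the filter on low counts, and 1, the hair keratin gene Krt85, was higher at E12.5 (3.80% of all genes), from 0 to 3.72 ± 1.66 CPM (edgeR adjusted p = 0.0208). Krt10, a keratin of differentiated epidermis, was the most read of the 46, at 132 CPM at E10.5 and 124 CPM at E12.5. In the parathyroid cells Krt1 and Krt85 had no read, and both calls were lost with the plate as a block (edgeR adjusted p = 0.152 and 0.159).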

How the data were processed

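Individual EPCAM+PLET1+ cells were captured in BD Precise WTA plates, which tag transcripts with molecular indices, while sample titles name SmartSeq2. Per the file headers, reads were aligned with STAR to GRCm38.p6 and assigned to GENCODE vM18 genes by HTSeq union rules. The submitters' processing notes name GRCm38.p5 and pipeline version 2.0. The authors deposited raw read counts per gene and well, and for each sequencing run read counts and molecule counts after RSEC and DBEC adjustment, without normalization. Each plate of the table equalled the sum of its first run and a repeat run at every value, so the plate was the replicate. No doublet caller was run, as cells were sorted singly.

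The members, lists and classes were chosen with earlier results of these data known. Cells were kept with a mitochondrial share of at most 50%, 40000 to 400000 reads and 500 to 5000 detected genes, counted on 21964 protein-coding genes. Summed reads of a plate, or of each class on a plate, were tested with edgeR 4.0.16 in R 4.3.3 (TMM, filterByExpr, robust quasi-likelihood fit, Benjamini-Hochberg over all genes tested), after the fit had been tested on simulated data. The SE of a log2 change was its size divided by the root of the F statistic. Shares were compared with exact permutation tests (SciPy 1.17.1). Intervals are exact at 95% (binomial, or Poisson for ratios of reads) and cover counting error only, as reads are not independent molecules. A share of 0 carries the limit that 3 counts set.

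Both classes come from the same plate library, which pairs them, although their deviations correlated only at 0.036, 0.030, 0.060 and 0.065 by plate. That block is given where it changed a call. Genes named outside the members were up to 4 per list with the largest change past the threshold, and the 3 most correlated per member. A gene that this rule names is not reported here. Alternatives were DESeq2 1.42.0, size factors, no count filter, no limits on cells, all genes, molecules, the first run alone, plate b of E12.5, other class limits, and leaving out each plate.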

Additional observations from a re-analysis of the deposited data

Results flagged for a closer look

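In 80 sets of 4 plates, 16 held a plate far from the other plates by Dixon's test, where chance alone flags about 1 in 20. The sets were the level (42 sets) and the share of cells with a molecule (38 sets) of each keratin in all E10.5 cells, E10.5 cells with and without neural markers, all E12.5 cells, other cells and parathyroid cells, leaving out sets at 0 throughout, and they overlap in their cells. In 5 of the 16 the other 3 plates stood at 0, where any read sets the flag, so the rate of 1 in 20 does not apply to them.

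Krt8 stood at 271 CPM on plate a in the parathyroid cells and between 105 and 130 CPM on the rest, and over all E12.5 cells it stood at 865 CPM on plate d, below 1162 to 1216 CPM on the rest. In E10.5 cells without neural markers Krt8 was found in 35.8% of cells on plate a, the shallowest, and in 72.9% to 79.7% on the rest. Krt14 stood at 17.2 CPM on plate c in the E12.5 other cells (1.80 to 2.07 CPM on the rest) and at 14.6 CPM over all E12.5 cells (1.58 to 1.94 CPM). At E10.5, Krt15 stood at 4.18 CPM on plate d, above at most 0.151 CPM elsewhere, and at 5.19 CPM without the neural-marker cells. Krt17 stood at 6.36 CPM on plate a, above at most 0.453 CPM elsewhere, and at 8.32 CPM without the neural-marker cells. In the parathyroid cells, Krt17 was read on plate c alone, at 0.907 CPM, and Krt19 on plate a alone, at 0.503 CPM. In the neural-marker cells, Krt17 was read on plate d alone, at 0.357 CPM. Krt5 stood there at 4.80 CPM on plate b, where 4.55% of cells held a molecule and none did elsewhere, and Krt19 at 9.05 CPM on plate c, where 5.56% held one and none did elsewhere.

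Plate b of E12.5 was read in a single run and not used in the comparisons. On it Krt5, Krt8, Krt14, Krt17 and Krt18 stood above the highest E10.5 plate. Set beside the first run of the other E12.5 plates, Krt8 was within their range, and Krt5, Krt14, Krt17 and Krt18 were below the lowest of them. The share of all genes that did so was not computed for either comparison. Krt5 stood at 260 CPM on plate b (277 to 656 CPM on the first run of the others) and Krt18 at 2301 CPM (2500.1 to 4491 CPM). Krt17 stood at 41.3 CPM (44.1 to 163 CPM) and Krt14 at 0.298 CPM (1.66 to 10.7 CPM). Krt8 stood at 845 CPM (730.0 to 1167 CPM).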

How the results depend on the processing

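Between the stages, 718 genes were called, against 1269 with DESeq2, 215 with the plate letter as a replicate block and 496 to 815 without a plate. The keratins called were 6, and 4 to 6 without a plate. Between the classes, 815 genes were called, against 1319 with DESeq2, 543 on molecules, 330 without the count filter, 202 with Pth or Gcm2 in place of Chga, 284 with the plate as a replicate block and 104 to 139 without a plate. The keratins called were 5, and 4 whenever a plate was left out. The cause of these differences was not tested. The letters of the stages share only a name: deviations of same-lettered plates correlated at 0.058, -0.023 and 0.021, and with that block the edgeR adjusted p was 0.216 for Krt7 and 0.266 for Krt14. Krt5, Krt8, Krt17 and Krt18 kept direction and call in every alternative of both comparisons.

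The log2 change of Krt19 between the stages (0.07, never called) was -0.10 on the first run, -0.19 with plate b, -0.46 with the replicate block, -0.24 without neural-marker cells, -0.061 also without parathyroid cells, and -0.41 to 0.40 without a plate. The difference in the share of cells with Krt15 (-0.250 percentage points) was 0.0244 on thinned reads, 0.568 on thinned molecules, 0.296 at 100 CPM or more and -0.720 to 0.473 without a plate. That of Krt19 (-1.86) was 0.701 on thinned molecules and -4.55 to -0.0490 without a plate. The median correlation of Krt8 and Krt18 in the other cells (0.75) was 0.82 on molecules and 0.73 to 0.77 without a plate. Of 138 alternatives for levels between the stages 116 kept direction and call, and of 100 between the classes 93 did. DESeq2 gave no adjusted p for Krt14, and on molecules Krt14 between stages and Krt7, Krt14 and Krt19 between classes were too low to test. With the plate letter as a replicate block the log2 change between the stages was 8.61 for Krt5 and 7.26 for Krt17.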
